A study of Homo sapiens with 3 samples.

Results

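HNRNPA2B1 lies on the minus strand of chromosome 7 from 26229556 to 26240413 (hg19), a stretch of 10858 nt. Its TIA1 binding map was made of every listed interval on that strand that overlapped those bounds by at least 1 nt. The authors' list of reproducible peaks held 10 such intervals of 2253, the cluster list of replicate 1 held 25 of 103134, and that of replicate 2 held 18 of 66222. The gene was taken up because its reproducible peaks were crowded, so their number and their folds over input describe it and support nothing by themselves.

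The data come from eCLIP, a method that crosslinks proteins to bound RNA with ultraviolet light, pulls down 1 protein with an antibody and sequences the RNA that comes with it. Per the labels, cells of the human embryonic kidney line HEK293T were irradiated with 600 mJ. TIA1 was immunoprecipitated with an anti-TIA1 antibody in 2 libraries, replicates 1 and 2, which were set against 1 input library taken without antibody. All 3 libraries share the cell line, and no other genotype or agent is labelled. The labels call the replicates technical in one place and biological in another, and a protocol field gives the antibody's catalogue number to Msi1, so the spread between replicates may be technical and the protein is called TIA1 after the sample titles. The totals recovered from the deposited values were 2683407 and 1997817 reads in TIA1 replicates 1 and 2, against 2851338 reads in the input.

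HNRNPA2B1 encodes the hnRNP proteins A2 and B1, which differ by the inclusion of a small exon near the 5′ end of the message. These abundant nuclear proteins bind pre-mRNA and take part in splicing, in RNA transport and in the sorting of microRNAs, and the gene's own 3′ untranslated region is alternatively spliced. TIA1 is an RNA-binding protein that favours U-rich RNA, promotes the use of weak 5′ splice sites when it binds just downstream of them, and represses translation from 3′ untranslated regions. Exon and intron bounds in the build of the files were not used here, so sites are placed by the distance of their centre from the gene's 3′ end, and none is assigned to an exon, an intron or the untranslated region.

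TIA1 clusters lay in a group towards the 3′ end, a sparse middle and a group at the 5′ end. When overlapping clusters of both replicates were joined, they formed 27 sites from 26230615 to 26240176. Both replicates listed 16 of these sites, replicate 1 alone listed 9 and replicate 2 alone listed 2. The 10 reproducible peaks lay in 10 of the 16 shared sites and covered 439 nt (4.04% of the gene). The longest stretch with no cluster in either replicate ran for 2279 nt from 26233060 to 26235338, and the next ran for 1489 nt from 26237220 to 26238708. The first cluster lay 1059 nt from the 3′ end, and the last ended 237 nt short of the 5′ end.

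The plus strand of the same stretch held 0 clusters in replicate 1, 0 in replicate 2 and 0 reproducible peaks. No transcript on that strand is named here within the bounds, so these numbers set no level for background binding. CBX3, which encodes a heterochromatin protein, is transcribed from the plus strand beyond the 5′ end of HNRNPA2B1, and the nearest plus-strand cluster on that side began after 1045 nt in replicate 1 and 1044 nt in replicate 2. On the minus strand the nearest clusters outside the gene lay far away, at 466347 nt upstream and 1047463 nt downstream in replicate 1, and at 483586 and 1067706 nt in replicate 2.

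**Figure D1:**
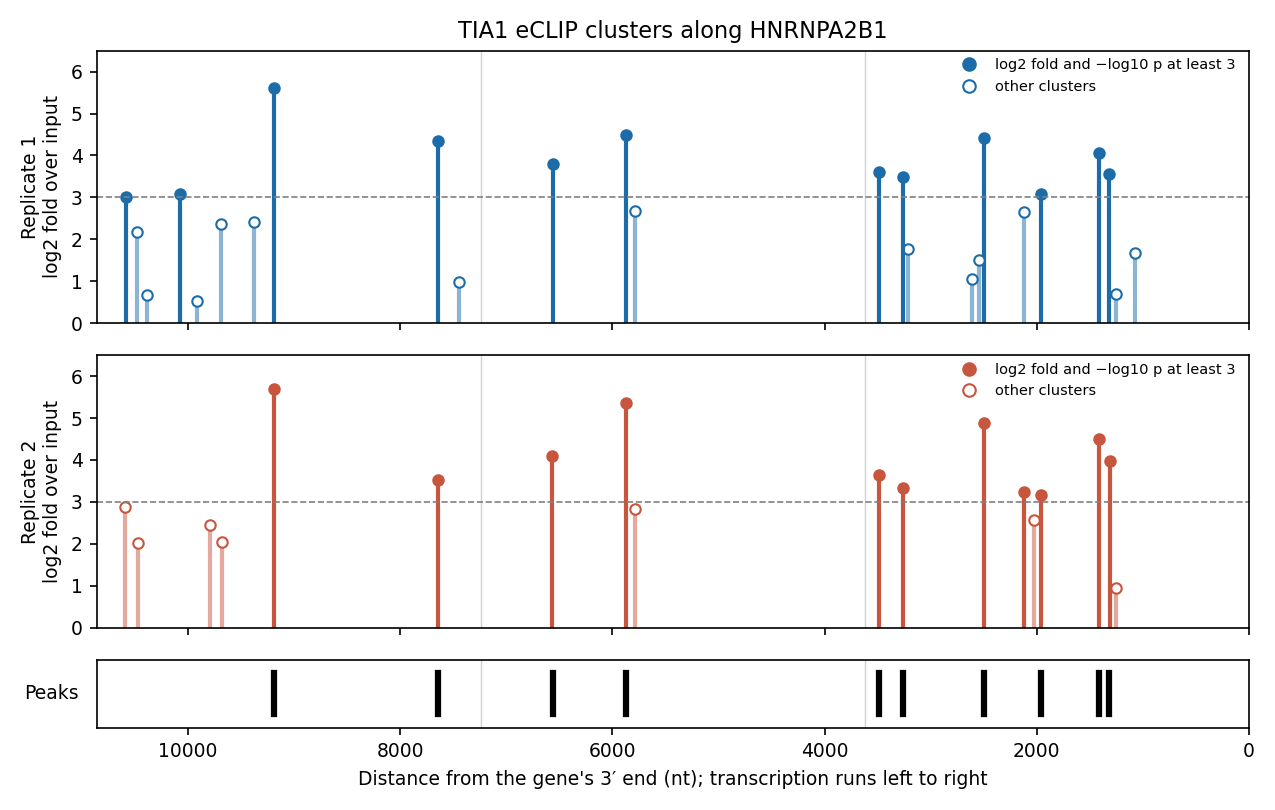
Log2 fold over input of each cluster (vertical axis) in TIA1 replicates 1 and 2 against its distance in nt from the 3′ end of HNRNPA2B1 (horizontal axis, 5′ end at left), with filled circles for clusters at a log2 fold and −log10 p of at least 3, a dashed line at a log2 fold of 3, grey lines between 3 equal parts of the gene, and the 10 reproducible peaks as black bars. The filled clusters of both replicates stand at the same 10 places as the peaks, with 2 more in replicate 1 near the 5′ end and 1 more in replicate 2 towards the 3′ end.

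The 3′ group held the most sites. Split into 3 equal parts of 3619 nt, a division made after the values were seen, the 3′ part held 6 reproducible peaks, the middle 2 and the 5′ part 2. Clusters of the 3′ part held 712 reads in replicate 1 and 626 in replicate 2, against input numbers of 120 and 90 over the clusters of each list. That was 53.8% and 63.2% of the TIA1 reads in clusters of the gene, against 51.7% and 64.3% of the input reads there.

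Fold over input at the ends of the gene differed by less than the counting intervals. Pooled over the clusters of the 3′ part, replicate 1 had a log2 fold of 2.66 (exact 95% interval 2.38 to 2.95) and replicate 2 one of 3.31 (2.99 to 3.65). Over those of the 5′ part it was 2.47 (2.18 to 2.79) and 3.28 (2.83 to 3.76). The middle part held 46 and 51 TIA1 reads over an input number of 4 in each list, with pooled log2 folds of 3.61 (2.16 to 5.55) and 4.19 (2.74 to 6.12). All these intervals overlap within a replicate. They cover counting error only, since reads after amplification need not be independent molecules. Clusters were called separately in each replicate and cover unequal lengths, 885 nt in replicate 1 and 674 nt in replicate 2.

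By fold over input the highest peak of the gene lay in its 5′ part, from 26238709 to 26238786, centred 9191 nt from the 3′ end. It held 184 reads in TIA1 replicate 1 and 146 in replicate 2, against an input number of 4. Scaled to library totals, these were 68.6 and 73.1 RPM (reads per 1000000 of the library total) in the TIA1 libraries and 1.4 in the input. Its log2 fold was 5.66 ± 0.06 (SD, n = 2), about 50.5-fold over input, with replicate values of 5.61 (exact 95% interval 4.23 to 7.50) and 5.70 (4.32 to 7.60). In the whole reproducible list it ranked 79 by fold and 20 by −log10 p.

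A pair of large peaks marked the 3′ part. The peak from 26232016 to 26232081, centred 2492 nt from the 3′ end, held 164 and 165 reads in the TIA1 replicates, against 8 in the input, which in replicate 2 is more than the 5′ peak. Its log2 fold was 4.66 ± 0.31 (SD, n = 2). The peak from 26230930 to 26231014, centred 1416 nt from the 3′ end and the widest of the gene at 85 nt, held 140 and 144 reads in the TIA1 replicates, against 9 in the input. Its log2 fold was 4.28 ± 0.33 (SD, n = 2). With the 5′ peak, these made 3 peaks with at least 100 reads in each replicate, which only 2.09% of the listed peaks reached. They carried 68.9% and 70.9% of the reads in the gene's peaks in replicates 1 and 2. At these 3 peaks, and at no other of the 10, the exact interval lay above a log2 fold of 3 in both replicates.

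Next to the widest peak, 51 nt closer to the 3′ end, stood a 20 nt peak from 26230859 to 26230878. It held 22 reads in each TIA1 replicate, against 2 in the input, and its log2 fold was 3.76 ± 0.30 (SD, n = 2). The lowest fold of the 10 peaks was that from 26231493 to 26231528, with 56 and 44 TIA1 reads against 7 in the input and a log2 fold of 3.13 ± 0.05 (SD, n = 2). Its folds of 3.09 and 3.17 sit just inside the limit of 3, above which the listed mean fold of every peak of the series lay.

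A further pair of peaks closed the 3′ part before the long gap. From 26232792 to 26232833 the TIA1 replicates held 42 and 28 reads, against 4 in the input, with a log2 fold of 3.40 ± 0.11 (SD, n = 2). This was the 1 peak of the 10 with a higher fold in replicate 1. From 26233020 to 26233059 they held 46 and 36 reads, against 4 in the input, with a log2 fold of 3.65 ± 0.05 (SD, n = 2). Both peaks are of medium depth, and their exact intervals reached down to log2 folds between 1.81 and 2.20.

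The remaining 3 peaks rested on few reads over an input number of 1, the smallest that occurs and one that may stand for 0. The peak from 26235408 to 26235450, centred 5873 nt from the 3′ end, held 22 and 29 TIA1 reads and had the gene's second highest log2 fold, 4.96 ± 0.58 (SD, n = 2). Its exact intervals ran from 1.92 to 9.91 in replicate 1 and from 2.78 to 10.7 in replicate 2. The peak from 26236116 to 26236122, only 7 nt wide, held 13 and 12 TIA1 reads with a log2 fold of 3.94 ± 0.22 (SD, n = 2). The cluster of replicate 2 at that place was wider, 17 nt, and held the same 12 reads.

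The last of these, from 26237192 to 26237213, centred 7646 nt from the 3′ end, held 19 and 16 TIA1 reads with a log2 fold of 4.42 ± 0.13 (SD, n = 2). Replicate 2 listed its own cluster there with 30 nt, the same 16 reads and an input number of 2, and a log2 fold of 3.51 in place of 4.51. At sites of this depth a single input read therefore moved the fold by 1 on the log2 scale.

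**Figure D2:**
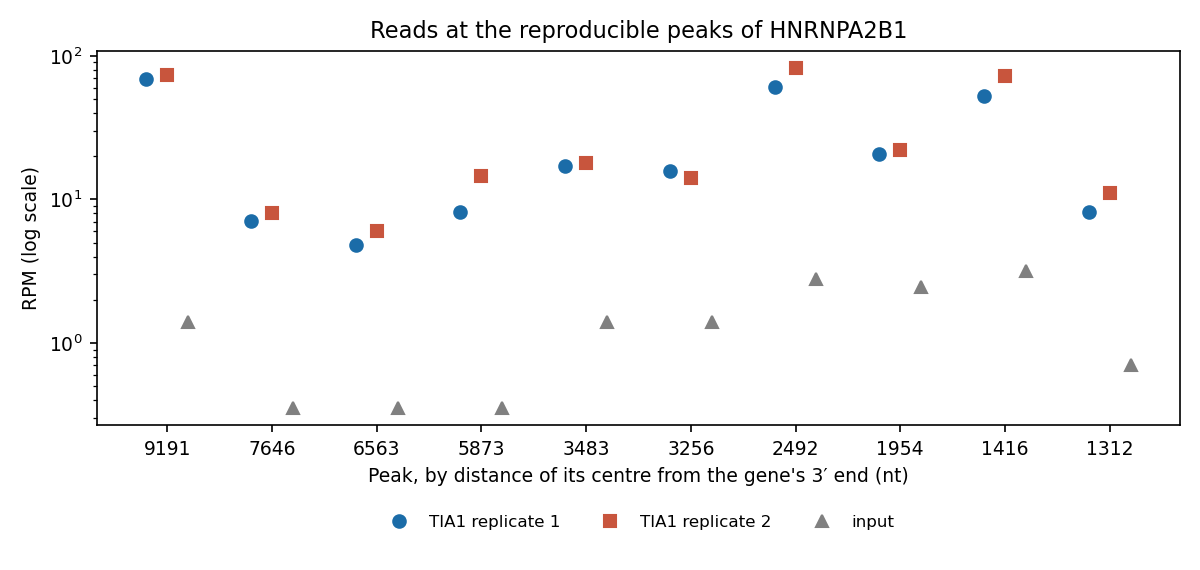
RPM on a log scale (vertical axis) in TIA1 replicate 1 (circles), TIA1 replicate 2 (squares) and the input (triangles) at the 10 reproducible peaks, ordered from the 5′ end by the distance of their centre from the 3′ end in nt. The TIA1 libraries lie between 4.84 and 82.6 RPM, and the input between 0.351 and 3.16, below both at each peak.

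**Figure D3:**
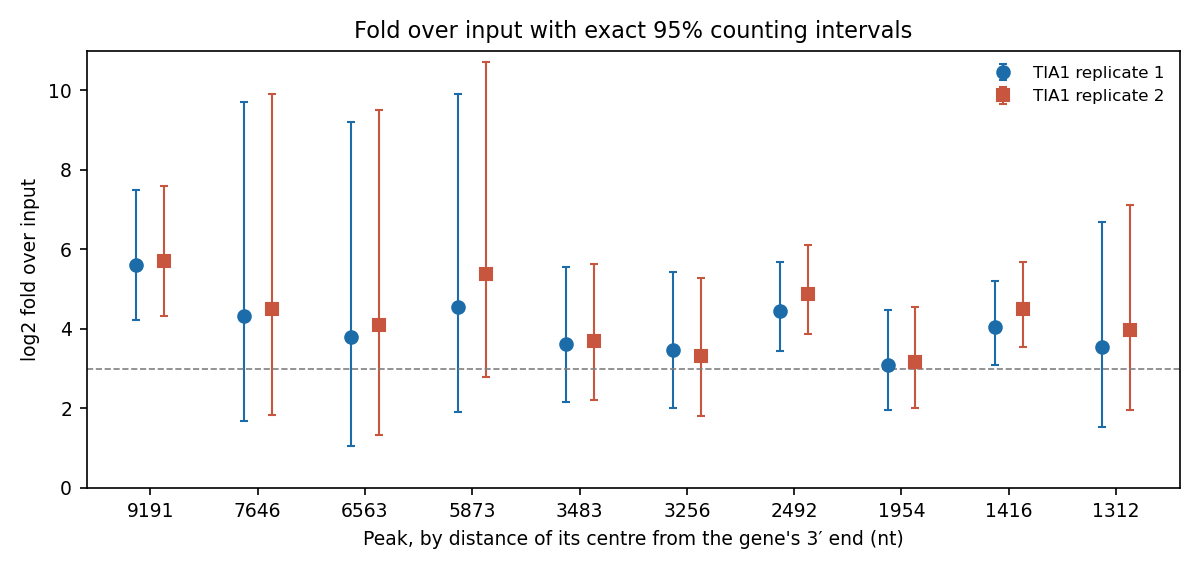
Log2 fold over input (vertical axis) at the same 10 peaks in TIA1 replicates 1 and 2, with exact 95% intervals for counting error and a dashed line at a log2 fold of 3. Intervals are narrowest at the peaks centred 1416 and 2492 nt from the 3′ end, with input numbers of 9 and 8. At the peak centred 9191 nt from it, with an input number of 4, they are wider, 4.23 to 7.50 and 4.32 to 7.60. They reach from 1.05 to 10.7 where the input number is 1.

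The peaks of HNRNPA2B1 were set beside the whole list by depth, width and fold. Their median log2 fold was 4.11, against 4.15 over all 2253 peaks, and 5 of 10 lay above that median. Their medians showed more reads and less width than the list's, with 44 and 32.5 reads in the TIA1 replicates, an input number of 4 and a width of 41 nt, against 24 and 20 reads, an input number of 1 and 53 nt in the list. An input number of 1 was found at 3 of 10 peaks, against 51.3% of the listed peaks with recovered reads. No test was made, since the gene was chosen for its peaks.

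Reads in both replicates were then compared at each peak with the share of the library totals, where replicate 1 held 57.3%. After Benjamini-Hochberg adjustment over the 2247 listed peaks with recovered reads, the exact binomial test (two-sided) called 0 of the 10 peaks of HNRNPA2B1, against 1.82% of the list. Without adjustment 3 of 10 lay under 0.05, against 10.2% of the list. These were the peaks at 26230930 (49.3% of reads from replicate 1, exact test, adjusted p = 0.164), at 26232016 (49.8%, exact test, adjusted p = 0.171) and at 26235408 (43.1%, exact test, adjusted p = 0.476). Such a test compares 2 libraries. The listed fold is the mean of both replicates and the listed −log10 p the lower of the 2, so the peaks had already been selected on values of both.

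The direction of the difference between replicates was compared next. Replicate 2 had the higher log2 fold at 9 of 10, against 57.5% of all listed peaks. Over the gene's 16 pairs of overlapping clusters, which include sites outside the peaks, it was higher in 11, against 61.4% of all one-to-one pairs. The mean log2 fold over the 10 peaks was 4.32 in replicate 2 and 4.05 in replicate 1, which gives 4.19 ± 0.19 (SD, n = 2). The SD of single peaks ran from 0.05 to 0.58 with a median of 0.17, against 0.21 in the list. Because both replicates are set against the same input, error in the input is not part of this spread.

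The clusters of the gene lay above the input in 25 of 25 cases in replicate 1, against 94.3% of all its clusters, and in 18 of 18 in replicate 2, against 96.0%. Most listed clusters do, so this is near the background. Together they held 1323 reads in TIA1 replicate 1, or 493 RPM, against 81.4 in the input. In replicate 2 they held 990 reads, or 496 RPM, against 49.1 in the input over that list's own intervals. Pooled log2 folds were 2.60 (exact 95% interval 2.4 to 2.81) in replicate 1 and 3.34 (3.08 to 3.60) in replicate 2. These totals are sums over unlike sets of sites, so they do not compare the replicates. The 9 sites that replicate 1 alone listed held 16 to 35 TIA1 reads each and 102 of the 232 input reads. The 2 sites of replicate 2 alone held 19 and 29 TIA1 reads and 12 of its 140 input reads. Over the 10 peaks, at the same bounds, TIA1 reads summed to 264 RPM in replicate 1 and 321 in replicate 2. What sets the pooled folds apart was not tested.

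Clusters with a log2 fold and −log10 p of at least 3 were counted next and are called enriched. They were 12 of 25 in replicate 1, against 3.09% of all its clusters, and 11 of 18 in replicate 2, against 5.32%. Enrichment needs reads, however, at least 13 in replicate 1 and 10 in replicate 2. Among clusters with that many reads, 12 of 24 were enriched in replicate 1, against 43.4% in the whole list, and 11 of 18 in replicate 2, against 52.4%. At such depth the shares of HNRNPA2B1 stood near the background, which leaves out clusters below the input, whose reads were not recovered. The enriched clusters carried 64.3% and 76.6% of the TIA1 reads in clusters of the gene, against 25.9% and 42.9% of the input reads there. They were selected by fold over input, so a TIA1 share above the input share follows from the selection.

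Of the enriched clusters, 10 of 12 in replicate 1 overlapped an enriched cluster of replicate 2, against 63.4% in the whole list, and 10 of 11 in the other direction, against 57.1%. All 10 are the sites of the reproducible peaks for which the gene was chosen, so nothing is read from these shares. Clusters of any kind met a cluster of the other replicate in 16 of 25 cases in replicate 1, against 28.9%, and in 16 of 18 in replicate 2, against 45.0%. Those lists are mostly shallower than the gene. Among clusters with at least 13 and 10 reads the counts were 15 of 24 in replicate 1, against 87.1%, and 16 of 18 in replicate 2, against 93.2%. In replicate 1 the gene's clusters of such depth thus met the other list less often than clusters at large. In replicate 2 their share was near the background. The reason was not tested. The edges of the 16 pairs differed by a median of 5 nt and at most 18 nt, in clusters as narrow as 6 nt. Pairs were defined by their overlap, which limits how far the edges of short clusters can differ. No value over all pairs is given beside these, so nothing is read from them. The input number was the same in 12 of 16 pairs, but both replicates share 1 input library, so this is no agreement between replicates. The exact binomial test of the replicate share, run on all pairs of clusters that met one to one, called 0 of these 16 after adjustment, against 0.0671% of all such pairs. Without adjustment it put 5 of the 16 under 0.05, against 3.78% of all such pairs. Among pairs with at least the 12 and 10 reads that the gene's pairs held in replicates 1 and 2, it was 9.17%. Bounds were identical in 0 of the 16 pairs, so this test cannot tell unequal cluster lengths from a difference between replicates.

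Enriched clusters outside the reproducible list lay at 3 sites. From 26231651 to 26231696 replicate 2 held 119 reads, and replicate 1 held 106 from 26231654 to 26231697, against 18 in the input for both. The log2 folds were 3.24 in replicate 2 and 2.65 in replicate 1, with a mean of 2.94 just below 3. From 26240111 to 26240176, the site closest to the 5′ end, replicate 1 held 114 reads against 15 in the input, and replicate 2 held 72 from 26240123 to 26240176 against 14. Their log2 folds were 3.01 and 2.88, again with a mean of 2.94. Both sites had more reads than 7 of the 10 listed peaks, and also more input.

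The third was listed in replicate 1 only, from 26239614 to 26239644, with 32 reads against 4 in the input and a log2 fold of 3.09 (exact 95% interval 1.59 to 5.05). Replicate 2 listed no cluster there. The other sites of replicate 1 alone were not enriched. Over its 9 sites reads ran from 16 to 35 and log2 folds from 0.54 to 3.09. The 2 sites of replicate 2 alone, at 26231569 and 26239344, held 29 and 19 reads with log2 folds of 2.56 and 2.44.

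Unenriched clusters with many reads had more input than the peaks did, which their fold below the limit implies. The deepest in replicate 1, besides the one at 26231654, were from 26239222 to 26239276 with 92 reads against 19 in the input (log2 fold 2.36), and from 26230782 to 26230824 with 47 against 31 (0.69). In replicate 2, besides the one at 26240123, they were from 26239224 to 26239258 with 43 reads against 15 (log2 fold 2.03), and from 26230787 to 26230822 with 42 against 31 (0.95). The input number of 31 was the highest of the gene in both lists. The enriched clusters, which were selected by fold, had pooled log2 folds of 3.91 in replicate 1 and 4.17 in replicate 2, against 1.54 and 2.05 over the unenriched ones.

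**Figure D4:**
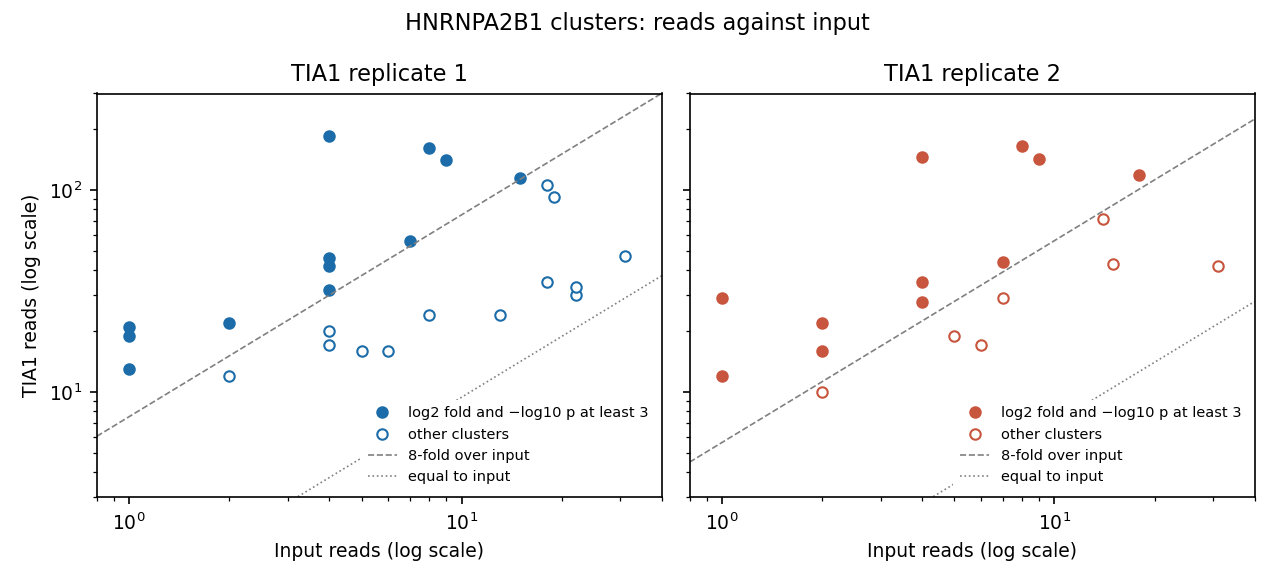
TIA1 reads (vertical, log scale) against input reads (horizontal, log scale) for the 25 clusters of replicate 1 and the 18 of replicate 2 in HNRNPA2B1, with a dashed line at 8-fold over input and a dotted line where both are equal after scaling to library totals. Every cluster lies above the dotted line, and the clusters with 31 input reads, 1 in each list, stand at log2 folds of 0.69 and 0.95.

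HNRNPA2B1 was last set beside the loci most like it. Peaks of 1 strand were joined into loci wherever no more than 10000 nt parted them. The 10 peaks of HNRNPA2B1 formed 1 of 1570 such loci, and 3 loci held more peaks. The 3 others closest in number of peaks and median fold lay on chromosome 22 from 38879589 to 38894392 (minus, 11 peaks), on chromosome 5 from 179155943 to 179157808 (plus, 9 peaks) and on chromosome 17 from 56076836 to 56083030 (minus, 9 peaks). The HNRNPA2B1 peaks spanned 7928 nt, or 1.26 peaks per kb, against 0.743, 4.82 and 1.45 peaks per kb in these loci. Their median log2 fold was 4.11, against 4.12, 4.29 and 3.93 in the same order, and their highest 5.66, against 5.58, 5.73 and 6.13. The summed TIA1 reads were 708 and 642 in HNRNPA2B1, over an input number of 41. They were 1071 and 890 over 83 on chromosome 22, 619 and 453 over 32 on chromosome 5, and 693 and 527 over 29 on chromosome 17. The median peak width was 41 nt in HNRNPA2B1, against 34, 36 and 44 nt in these loci, so neither the depth nor the narrow peaks are particular to this gene.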

How the data were processed

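The submitters' processing notes name the build hg19 and the tools STAR 2.4.0i, SAMtools 1.4.1 and cutadapt, the last in versions 1.14 and 1.9.1. The labels' protocols name the eCLIP pipeline of the Yeo laboratory. Which program called clusters is not given in the sources used. Each list carries a deposited −log10 p-value of the interval's reads against the input, with 400 as its highest value. It also carries a deposited log2 fold, which the authors scaled to library totals. Both units were read from the values, since the lists have no header, and the input enters only through them. Clusters were listed per replicate, and reproducible peaks once for both.

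Library totals and reads were recovered with scipy 1.17.1 from the steps of the log2 fold and the p-values. These came from Fisher's exact test where a number was under 5 and otherwise from a chi-square test with Yates' correction, a rule found by trial on these data. Matching used a relative tolerance of 2e-05, and was tested on data simulated with the same rule and known library totals. That test covers the matching only, not the rule or the recovered totals. All 25 and 18 clusters of HNRNPA2B1 had 1 solution. At a peak, the replicate without those bounds was derived from the listed mean, and reads of both came out whole within 0.0001 at 2247 of 2253 peaks. At all 2247 the lower −log10 p matched the listed one within a relative 0.001.

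Every reproducible peak, every enriched cluster outside them and the 3 deepest unenriched clusters per replicate are named. The gene, the lists and the thresholds were chosen with earlier results of these data known. A fixed list of other hnRNP genes, motif searches and placement on exons need an hg19 genome or annotation and were not analysed here.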

Additional observations from a re-analysis of the deposited data

How the results depend on the processing

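With the limits raised to 4 for log2 fold and 5 for −log10 p, HNRNPA2B1 had 4 reproducible peaks, 4 enriched clusters in replicate 1, 4 in replicate 2 and 4 enriched in both. The plus strand of the same bounds held 0 peaks and is no measure of background. The other 15 of 20 settings stayed within 1.5 times the count, or within the spread or counting interval of the value. At a laxer log2 fold of 1, 15 clusters were enriched in each replicate. The mean log2 fold of the peaks was 4.05 to 4.32 when either replicate was left out. The replicate share called 0 peaks against the pooled share and 0 of 16 pairs of overlapping clusters, a setting added after the data were seen, as was the limit on reads. No paired analysis was possible because the input is 1 library without a file of its own and no second group of replicates exists. Depth limits the 3 peaks with an input number of 1. Placement on exons and U-run settings were not run.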
